A study of Mus musculus with 4 samples.

Results

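Leydig nuclei were selected on transcripts of 10 genes in single-nucleus RNA-seq of mouse testis, and 1178 of the 36152 barcodes that passed a depth filter met the rule. A barcode was kept by the depth filter with at least 1000 unique molecular identifiers (UMIs, counted transcripts) and between 500 and 5000 detected genes, and it was chosen by the gate when at least 4 of Cyp11a1, Cyp17a1, Hsd3b6, Hsd17b3, Insl3, Prlr, Akr1cl, Star, Lhcgr and Bhmt had at least 1 UMI. The 4 libraries came from whole testes of C57BL/6-based mice labelled 8 weeks old, 2 from WT animals and 2 from Dhx37-/- animals. In the Dhx37-/- animals both Dhx37 alleles carry loxP sites around an exon near the start of the gene and an Amh-Cre transgene, driven by a Sertoli cell promoter, deletes it, so that Leydig cells are not the cells in which the Cre is designed to act. WT animals were littermates. The labels call the 2 libraries of a genotype biological replicates and do not name the animals behind them, so that p-values measure the spread between these libraries.

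Leydig cells lie between the seminiferous tubules and make testosterone from cholesterol when luteinizing hormone binds its receptor, Lhcgr, and raises cAMP. Star moves cholesterol into the mitochondrion, Cyp11a1 cuts its side chain, 3-beta-hydroxysteroid dehydrogenases (Hsd3b1 and Hsd3b6 in the mouse testis) and Cyp17a1 act on the product, and Hsd17b3 makes testosterone. The cells also secrete the peptide hormone Insl3, which acts in the descent of the testis.

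The sequences upstream of Hsd3b6 and Hsd3b1 are shown because most Leydig nuclei with several UMIs of these neighbouring paralogs had them mainly from 1 of the 2, as described after the gate genes, and that of the gate gene Bhmt because it holds a binding motif of steroidogenic factor 1 (Nr5a1). They are the 250 bases before the transcription start given by RefSeq on GRCm38.p6, all on the minus strand, at chr3:98814444-98814693, chr3:98859795-98860044 and chr13:93637759-93638008. Capitals mark the GATA motif AGATAA, or TTATCT where it lies on the other strand, and the steroidogenic factor 1 motif CAAGGTCA.
Hsd3b6: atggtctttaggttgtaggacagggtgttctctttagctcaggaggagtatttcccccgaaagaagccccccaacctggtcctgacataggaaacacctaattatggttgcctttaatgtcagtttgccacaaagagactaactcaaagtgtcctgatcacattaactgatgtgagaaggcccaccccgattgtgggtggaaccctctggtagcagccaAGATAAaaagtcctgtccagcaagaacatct
Hsd3b1: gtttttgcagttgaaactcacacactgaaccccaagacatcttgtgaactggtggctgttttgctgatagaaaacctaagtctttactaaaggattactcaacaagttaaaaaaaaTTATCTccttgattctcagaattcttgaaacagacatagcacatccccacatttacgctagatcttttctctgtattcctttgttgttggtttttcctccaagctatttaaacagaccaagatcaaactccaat
Bhmt: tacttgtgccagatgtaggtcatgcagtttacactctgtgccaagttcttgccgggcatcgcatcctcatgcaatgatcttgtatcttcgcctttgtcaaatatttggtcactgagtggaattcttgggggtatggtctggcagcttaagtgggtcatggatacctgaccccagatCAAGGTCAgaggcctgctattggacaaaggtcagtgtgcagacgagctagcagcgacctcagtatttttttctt
Both strands were searched for these exact strings only, so that other forms of the motifs are not marked. AGATAA was in 9.99% and CAAGGTCA in 1.33% of all 32851 promoter windows of the same length, so that a match is a description and not a binding site. The motif AGATAA began 31 bases before the start in Hsd3b6 and, on the other strand, at 134 bases before the start in Hsd3b1. Position by position the promoters of Hsd3b6 and Hsd3b1 were identical at 28% of 250 bases.

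The gate selected both nuclei rich in Leydig transcripts and nuclei with a few such UMIs. Barcodes with at least 6 gate genes held a median of 70 and 82.5 in WT and 90 and 121 in Dhx37-/- libraries, in UMIs counted over the 10 genes together. Barcodes with 4 or 5 gate genes held 22.5 and 7.5 in WT and 7 and 6 in Dhx37-/- libraries. Of all gated barcodes they were 14.5% and 6.98% in WT and 24.3% and 28.7% in Dhx37-/-. Their median share of Malat1, a nuclear RNA, was 4.86% and 4.89% in WT and 1.73% and 1.05% in Dhx37-/-, against 10.7% and 23.3% in WT and 16.8% and 17.7% in Dhx37-/- at 6 or more genes. Just inside the limit, barcodes with exactly 4 gate genes held a median of 13 and 6.5 in WT and 6 and 5.5 in Dhx37-/- libraries, and just outside it those with 3 held 4 and 4 in WT and 4 and 3 in Dhx37-/-. In the Dhx37-/- libraries, gated barcodes with few Leydig UMIs were therefore a larger part of the total.

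Markers of other cell types were counted in the gated sums in unequal amounts. Barcodes that also held at least 4 of 10 markers of another somatic class or of spermatogonia were 6.81% and 4.65% in WT and 21.7% and 14.9% in Dhx37-/-. The summed level of 10 macrophage markers was 64.4 CPM and 58.2 CPM in WT and 520.2 CPM and 170.1 CPM in Dhx37-/-, where CPM is the UMIs of a gene over all UMIs of the sum, scaled to a common total, and 2 and 4 of the 10 were at 0 in the WT libraries, Csf1r and Cd163 in both, but none in the Dhx37-/- libraries. The 10 fibroblast markers summed to 577 CPM and 501 CPM in WT and 981 CPM and 1009.8 CPM in Dhx37-/-, with 3 at 0 in WT replicate 2. Those of peritubular myoid cells summed to 61.8 CPM and 73.8 CPM in WT and 167 CPM and 138 CPM in Dhx37-/-, also with 3 at 0 there. Sertoli markers summed to 97.4 CPM and 114 CPM in WT and 175 CPM and 187 CPM in Dhx37-/-. T cell markers summed to 37.3 CPM and 29.1 CPM in WT and 59.3 CPM and 43.9 CPM in Dhx37-/-, with 4 and 6 of 10 at 0 in the WT libraries and 1 at 0 in Dhx37-/- replicate 2. Markers of later germ cells had the same order of genotypes. Elongating spermatid markers summed to 2955 CPM and 3019 CPM in WT and 7264 CPM and 5246 CPM in Dhx37-/-. Round spermatid markers summed to 269 CPM and 293 CPM in WT and 396 CPM and 494 CPM in Dhx37-/- and spermatocyte markers to 213 CPM and 134 CPM in WT and 261 CPM and 302 CPM in Dhx37-/-. These 8 sums were higher in both Dhx37-/- libraries than in both WT libraries. Those of endothelial markers, 31.3 CPM and 47.0 CPM in WT and 46.4 CPM and 62.9 CPM in Dhx37-/-, and spermatogonia markers, 1145 CPM and 731 CPM in WT and 714 CPM and 795 CPM in Dhx37-/-, overlapped between the genotypes. Where the UMIs of these markers came from, and their part in the differences between genotypes given later, were not tested. The share of gated UMIs put down to free RNA, estimated from spermatid transcripts, was 19.3% and 9.11% in WT and 12.8% and 13% in Dhx37-/-. In free RNA, Sertoli markers summed to 245 and 254 CPM in WT and 397 and 359 CPM in Dhx37-/-, above the gated sums. Elongating spermatid markers summed there to 15346 and 32207 CPM in WT and 55648 and 39370 CPM in Dhx37-/-. Fibroblast and spermatogonia sums lay above free RNA in every library, macrophage sums only in Dhx37-/- replicate 1 and endothelial sums only in Dhx37-/- replicate 2. Those of the other classes lay below it in every library. The median number of UMIs per gated barcode was 4625 and 4894 in WT and 5325 and 6104 in Dhx37-/-. The 4 libraries held between 51797891 and 75611263 UMIs in all, no gated barcode sequence occurred in more than 1 library, and no doublet caller was run.

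Leydig nuclei made up a larger share of the Dhx37-/- libraries than of the WT libraries, with no overlap between the 2 genotypes. WT replicate 1 held 235 of 9742 barcodes, a share of 2.41% (95% interval 2.13 to 2.74). WT replicate 2 held 86 of 8057 barcodes, a share of 1.07% (95% interval 0.865 to 1.32). Dhx37-/- replicate 1 held 415 of 8509 barcodes, a share of 4.88% (95% interval 4.44 to 5.36). Dhx37-/- replicate 2 held 442 of 9844 barcodes, a share of 4.49% (95% interval 4.10 to 4.92). The mean was 1.74% ± 0.951 (SD, n = 2) in WT and 4.68% ± 0.274 (SD, n = 2) in Dhx37-/-, a difference of 2.94 percentage points and a ratio of 2.69. A two-sided exact permutation test gave p = 0.33, the smallest that 2 against 2 libraries allow, so that the design cannot reach 0.05. With at least 6 gate genes the shares were 2.06% and 0.993% in WT and 3.69% and 3.20% in Dhx37-/-, and the ratio was 2.25. Without WT replicate 1 or 2 the difference was 3.62 or 2.27 points, and without Dhx37-/- replicate 1 or 2 it was 2.75 or 3.14 points. The intervals cover counting error only. Free RNA of the 10 gate genes summed to 550 and 425 CPM in WT and 1038 and 1013 CPM in Dhx37-/-. Barcodes with exactly 3 gate genes numbered 62 and 23 in WT and 215 and 244 in Dhx37-/-. A share rises when Leydig nuclei increase, when other nuclei are lost and when more other barcodes pass the gate. These cannot be told apart here.

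**Figure D1:**
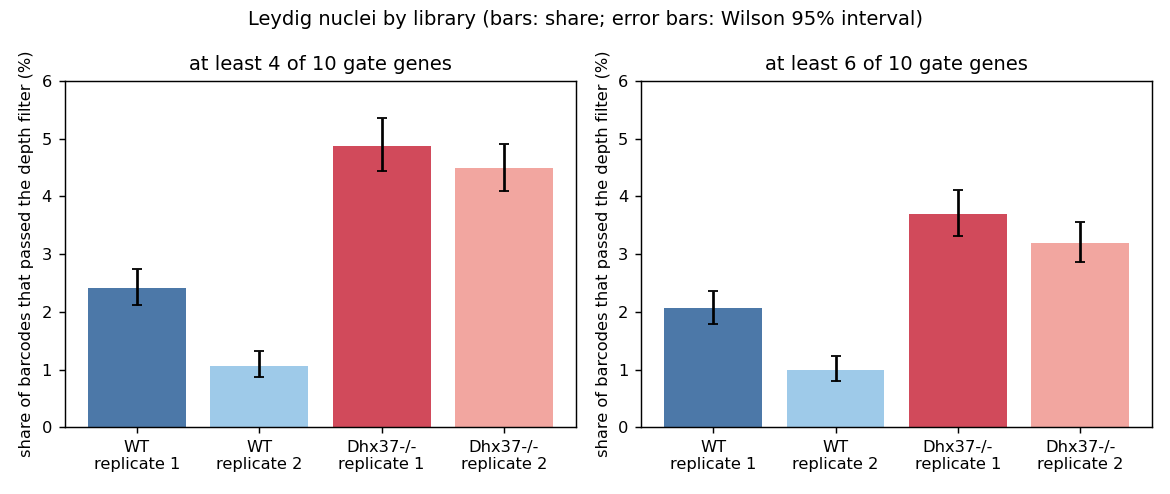
Share of barcodes that passed the depth filter and the gate (y axis, %) in each of the 4 libraries (x axis), at 4 or more and at 6 or more gate genes, with Wilson 95% intervals. Both Dhx37-/- bars stand above both WT bars in both panels.

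The gate genes were set apart from the other 34974 barcodes in every library, which is a description because the gate chose the barcodes. Akr1cl, an aldo-keto reductase family member, was the highest, at 6776 and 5149 CPM in WT and 4673 and 6131 CPM in Dhx37-/- nuclei, against 40.9 and 12.2 CPM in WT and 43.5 and 36.8 CPM in Dhx37-/- among the other barcodes. The log2 ratio of mean levels, with 10 CPM added to both, was 7.04 for Akr1cl, 6.43 for Cyp11a1, 6.35 for Prlr, the prolactin receptor, and 4.42 for Star, the lowest of the 10. The share of gated barcodes with an Insl3 UMI was 51.9% and 93.0% in WT and 94.0% and 89.8% in Dhx37-/-. Among the other barcodes, of a median 3307 to 4138 UMIs, it was 0.884% and 4.49% in WT and 16.7% and 12.1% in Dhx37-/-, beside a free RNA level of Insl3 of 11.3 CPM and 119 CPM in WT and 359 CPM and 242 CPM in Dhx37-/-. For Lhcgr, the receptor, the share among gated barcodes was 70.2% and 72.1% in WT and 58.6% and 53.4% in Dhx37-/-. Among other barcodes it was 1.04% and 1.41% in WT and 1.41% and 1.32% in Dhx37-/-. Barcodes with 4 or 5 gate genes were a larger part of the gated barcodes in Dhx37-/-, and their part in these shares was not tested.

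Among genes that are no gate genes, the 15 with the largest ratio were Tmem164, Nckap5, Pank1, Neat1, Fads2, Gm20528, Acsbg1, Heg1, Slc7a8, Lifr, Pgbd5, Spon1, Abca1, Aff2 and Hsd3b1, with log2 ratios from 5.05 to 6.19. Values follow for 4 of them, picked for their known functions. Abca1, which exports cholesterol, was at 3201 and 1002 CPM in WT and 1140.0 and 1648 CPM in Dhx37-/- nuclei. Fads2, a fatty acid desaturase, was at 928 and 1720.0 CPM in WT and 1427 and 735 CPM in Dhx37-/- nuclei. Acsbg1, an acyl-CoA synthetase, was at 2393 and 1919 CPM in WT and 1652 and 1966 CPM in Dhx37-/- nuclei. Pank1, which starts coenzyme A synthesis, was at 2600.1 and 1038 CPM in WT and 1002 and 1495 CPM in Dhx37-/- nuclei. In the other barcodes these 4 genes lay between 6.10 and 48.5 CPM. Abca1, Pank1 and Lifr, the leukaemia inhibitory factor receptor, varied more between the WT libraries than between the genotype means. At the other end, Zfp804b, Gm10754, Mgat4c, Gm5570 and Agbl1 had log2 ratios from -2.94 to -2.81.

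**Figure D2:**
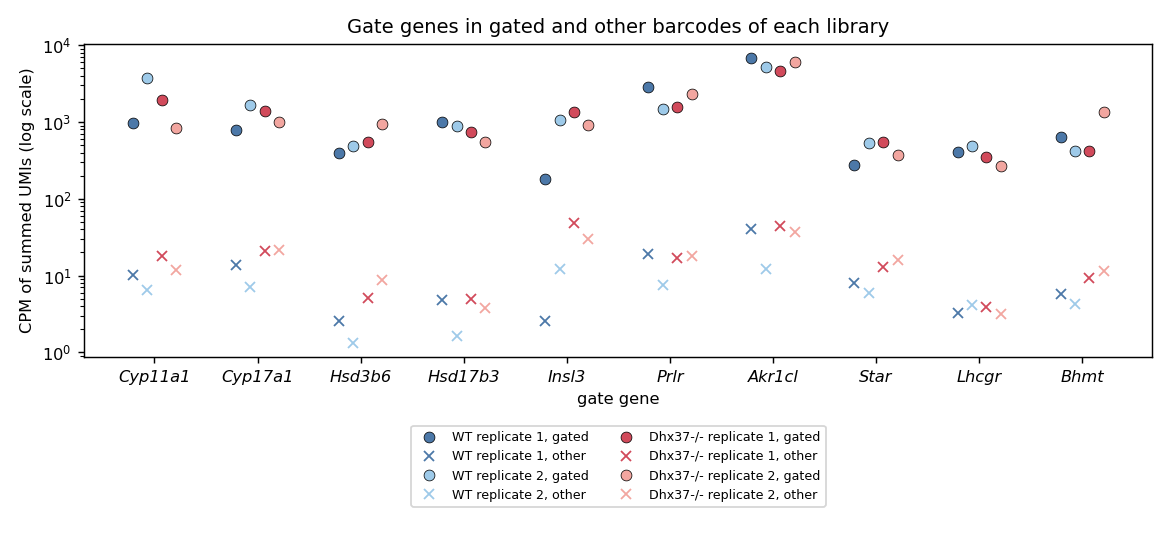
Level of each gate gene (x axis) as CPM of UMIs summed per library (y axis, log scale), circles for gated and crosses for other barcodes, coloured by library. Gated levels lie far above the others for all 10 genes, while libraries of 1 genotype differ from each other for Cyp11a1, Insl3 and Bhmt.

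In all 4 libraries most nuclei with several UMIs of Hsd3b6 and Hsd3b1 had them mainly from 1 of the 2 genes, a pattern that was chosen for description after its values were seen. Hsd3b6 is a gate gene, so nuclei were taken here by at least 5 of the other 9 gate genes, 214 and 82 in WT and 346 and 337 in Dhx37-/- libraries. Of those with at least 3 UMIs of the pair, 86.3% and 83.9% in WT and 72.0% and 80% in Dhx37-/- had at least 80% of these UMIs from 1 of the 2 genes. Hsd3b6-dominant nuclei numbered 49 and 24 in WT and 83 and 148 in Dhx37-/-, Hsd3b1-dominant nuclei 90 and 28 in WT and 89 and 72 in Dhx37-/- and mixed nuclei 22 and 10 in WT and 67 and 55 in Dhx37-/-. Detection alone, with no limit on UMIs, set the genes apart less evenly. Nuclei with at least 1 UMI of both genes numbered 44 and 18 in WT and 124 and 120 in Dhx37-/-, where independent detection would give 60.7 and 28.0 in WT and 128 and 137 in Dhx37-/-. The odds ratio was 0.206 and 0.0808 in WT and 0.826 and 0.366 in Dhx37-/-, closest to the 1 of independence in Dhx37-/- replicate 1. An Hsd3b1-dominant nucleus held on average 7.32 to 15.7 Hsd3b1 UMIs and 0.0357 to 0.181 Hsd3b6 UMIs. An Hsd3b6-dominant nucleus held 6.88 to 13.3 Hsd3b6 UMIs and 0.327 to 0.614 Hsd3b1 UMIs, more of the other gene in every library. The median total of UMIs per nucleus was 5468 and 4982 in WT and 6222 and 6874 in Dhx37-/- for Hsd3b6-dominant and 4616 and 5074 in WT and 5623 and 6542 in Dhx37-/- for Hsd3b1-dominant nuclei. Both genes lie on chromosome 3 of GRCm38 on the minus strand, 45.4 kb apart by their starts. Over aligned bases their longest annotated transcripts are 82.0% identical, and 2.77% of the 31-base stretches in the last 500 bases of Hsd3b6 also occur in Hsd3b1, so that a few reads could be assigned to the other copy.

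**Figure D3:**
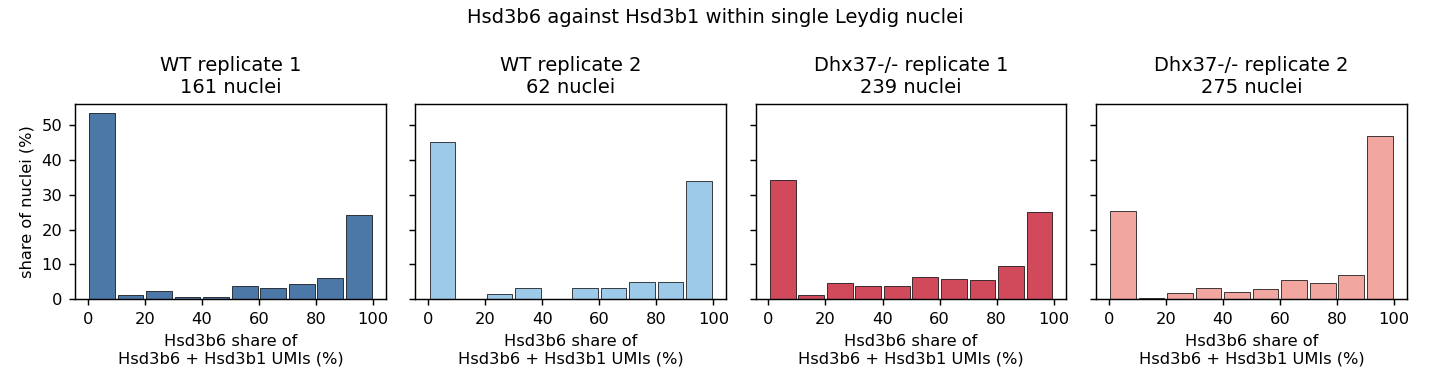
Share of nuclei (y axis, %) by the percent of Hsd3b6 among the UMIs of Hsd3b6 and Hsd3b1 (x axis, bins of 10) in each library, for nuclei with at least 3 such UMIs. The bars stand at both ends and are low between them in all 4 libraries.

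Hsd3b6-dominant nuclei were 35.3% and 46.2% in WT and 48.3% and 67.3% in Dhx37-/- of the dominant nuclei. The means were 40.7% ± 7.71 (SD, n = 2) and 57.8% ± 13.4 (SD, n = 2), and the exact permutation p was 0.33, the smallest possible. Both Dhx37-/- values lay above both WT values, and those of WT replicate 2 and Dhx37-/- replicate 1 lay closest to each other. Mixed nuclei are left out of these shares. Of all nuclei with at least 3 UMIs of the pair, Hsd3b6-dominant ones were 30.4% and 38.7% in WT and 34.7% and 53.8% in Dhx37-/-. By that measure the genotypes overlapped.

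Other genes differed with the paralog. Of 4302 genes with at least 50 CPM on average in either kind of nucleus, 14 were at least 2-fold higher in Hsd3b1-dominant nuclei in all 4 libraries, 0.325% of the genes, and 2 were at least 2-fold higher in Hsd3b6-dominant nuclei, 0.0465% (5 CPM added). No test was run because the split was chosen with these values known. The 14 genes were 6330411D24Rik, Ptprt, Zfpm2, Prkar2b, Mageb18, Nkain2, Fign, Gata6os, Cacna2d1, Zfp536, Nabp1, Gata6, Cdh2 and Epb41l3. The non-coding gene Gata6os and Gata6, which neighbour each other, may share reads. 6330411D24Rik was at 1067, 543, 848 and 1022 CPM in Hsd3b1-dominant nuclei against 87.6, 8.25, 60.4 and 52 CPM in Hsd3b6-dominant nuclei, in the order WT replicate 1, WT replicate 2, Dhx37-/- replicate 1 and Dhx37-/- replicate 2. Zfpm2, a cofactor of GATA factors, was at 141, 88.4, 134 and 211 CPM in Hsd3b1-dominant nuclei against 14, 8.25, 18.3 and 24.1 CPM in Hsd3b6-dominant nuclei. Gata6, a GATA transcription factor, was at 75.7, 75.8, 79.5 and 124 CPM in Hsd3b1-dominant nuclei against 10.5, 24.7, 33.0 and 31.8 CPM in Hsd3b6-dominant nuclei. Gata4, another GATA factor and not among the 14, had log2 differences of -0.27 to 0.13, Hsd3b6-dominant minus Hsd3b1-dominant. The Hsd3b6-dominant sum of WT replicate 2 came from 24 nuclei. 6330411D24Rik, Ptprt, Zfpm2 and Fign were each at 8.25 CPM there and Mageb18 at 0, so that low levels there rest on few UMIs. Prkar2b, a regulatory subunit of the cAMP-dependent kinase, was at 110.3, 309.5, 176 and 128 CPM in Hsd3b1-dominant nuclei against 38.5, 33.0, 43.9 and 6.74 CPM in Hsd3b6-dominant nuclei. Sult1e1, the estrogen sulfotransferase, and Agt, angiotensinogen, were outside the 14 and were named for their function, with log2 differences of -1.23 to -0.98 and -1.34 to -0.71.

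The 2 genes higher in Hsd3b6-dominant nuclei were Stk32a, a kinase, and 2600014E21Rik. Stk32a was at 104, 94.8, 47.3 and 8.53 CPM in Hsd3b1-dominant nuclei against 319, 239, 126 and 100.1 CPM in Hsd3b6-dominant nuclei. The other 9 gate genes also selected these nuclei, so that their values are a description. Of them, 5 were higher in Hsd3b6-dominant nuclei in all 4 libraries, as were 11.3% of the 4302 genes, with log2 differences of 0.26 to 1.20 for Hsd17b3, 0.06 to 1.15 for Star, 0.01 to 0.71 for Insl3, 0.11 to 0.28 for Prlr and 0.03 to 0.10 for Akr1cl. Lhcgr and Cyp11a1 were lower in all 4, as were 13% of the genes, at -0.75 to -0.20 and -0.57 to -0.13. The differences of Cyp17a1, -0.52 to 0.26, and Bhmt, -1.04 to 0.39, went both ways. The 10 fibroblast markers summed to 518 to 714 CPM in Hsd3b6-dominant and 199 to 499 CPM in Hsd3b1-dominant nuclei. The 10 peritubular myoid markers were also higher in Hsd3b6-dominant nuclei of every library, at 80.6 CPM and 82.5 CPM in WT and 86.1 CPM and 81.8 CPM in Dhx37-/-, against 41.1 CPM and 44.2 CPM in WT and 66.3 CPM and 72.5 CPM in Dhx37-/- in Hsd3b1-dominant nuclei. The 10 Sertoli markers were higher in Hsd3b1-dominant nuclei of every library, at 123 CPM and 145 CPM in WT and 157 CPM and 143 CPM in Dhx37-/-, against 77.1 CPM and 74.2 CPM in WT and 119 CPM and 121 CPM in Dhx37-/- in Hsd3b6-dominant nuclei. Macrophage, endothelial, T cell, spermatogonia and spermatocyte markers differed in both directions among the libraries. The 10 elongating spermatid markers, which include the transcripts used to estimate free RNA, were likewise higher in Hsd3b1-dominant nuclei of every library, at 2653 CPM and 3133 CPM in WT and 6261 CPM and 4693 CPM in Dhx37-/-, against 2434 CPM and 2351 CPM in WT and 5087 CPM and 3300.5 CPM in Dhx37-/- in Hsd3b6-dominant nuclei. The 10 round spermatid markers were also higher there in every library, at 255 CPM and 335 CPM in WT and 276 CPM and 388 CPM in Dhx37-/-, against 217 CPM and 107 CPM in WT and 269 CPM and 310.0 CPM in Dhx37-/-. The part of these markers in the difference was not tested.

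**Figure D4:**
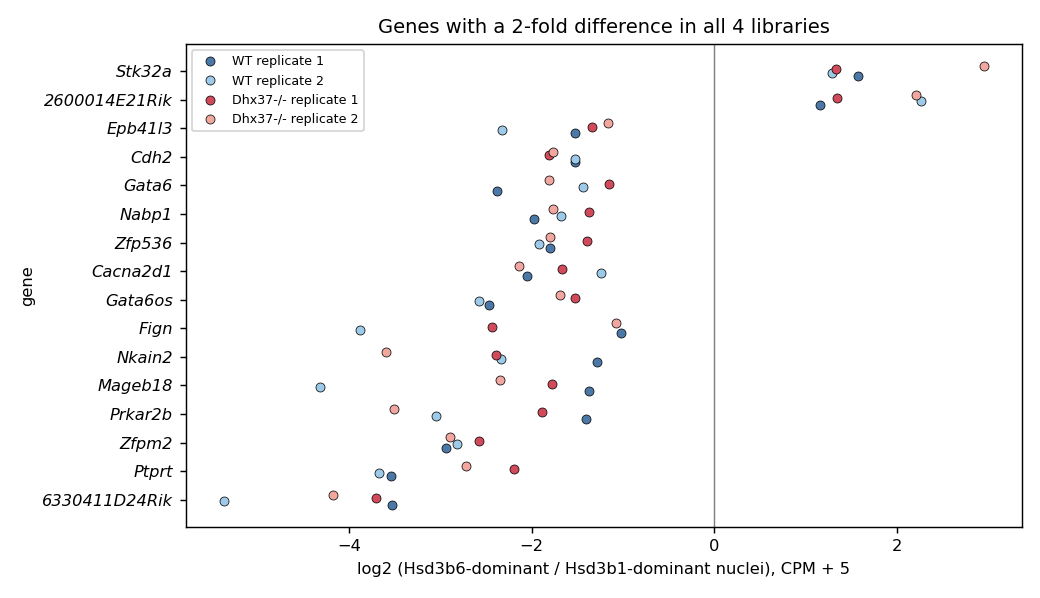
Log2 ratio of Hsd3b6-dominant over Hsd3b1-dominant nuclei (x axis, 5 CPM added) for the 16 genes that differed at least 2-fold in all 4 libraries (y axis), 1 point per library. The 14 genes at the bottom lie left of 0 and the 2 at the top right of 0 in every library.

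Between the genotypes, no gate gene passed the test when it was left out of its own gate. Each was tested with edgeR's quasi-likelihood test on nuclei with at least 4 of the other 9 gate genes, with Benjamini-Hochberg adjustment over all genes. Star was at 278 and 537 CPM in WT and 567 and 384 CPM in Dhx37-/- nuclei (log2 fold change 0.08, SE 0.40, adjusted p 0.97). Cyp11a1 was at 988 and 3741 CPM in WT and 2010.5 and 863 CPM in Dhx37-/- nuclei (log2 fold change -0.89, SE 0.66, adjusted p 0.72), and the genotypes overlapped. Cyp17a1 was at 805 and 1681 CPM in WT and 1464 and 1045 CPM in Dhx37-/- nuclei (log2 fold change -0.14, SE 0.45, adjusted p 0.96).

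Hsd3b6 was at 398 and 484 CPM in WT and 561 and 963 CPM in Dhx37-/- nuclei (log2 fold change 0.64, SE 0.37, adjusted p 0.64), higher in both Dhx37-/- libraries. Hsd17b3 was at 999 and 898 CPM in WT and 757 and 557 CPM in Dhx37-/- nuclei (log2 fold change -0.70, SE 0.35, adjusted p 0.56), lower in both. Lhcgr was at 409 and 483 CPM in WT and 352 and 263 CPM in Dhx37-/- nuclei (log2 fold change -0.71, SE 0.32, adjusted p 0.56), also lower in both. With at least 6 of the other gate genes, log2 fold changes were 0.94 for Hsd3b6, -0.39 for Hsd17b3 and -0.41 for Lhcgr. The decreases of Hsd17b3 and Lhcgr were then smaller, and the increase of Hsd3b6 was larger. None of the 3 passed the test at either limit. Of the 15018 genes tested in the sums of all gated barcodes, 22.0% were likewise higher and 19.3% lower in both Dhx37-/- libraries than in both WT libraries, so that 1 and 2 of 10 gate genes do not stand out from that background.

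Insl3 was at 179 and 1075 CPM in WT and 1431 and 971 CPM in Dhx37-/- nuclei (log2 fold change 0.80, SE 0.68, adjusted p 0.85). WT replicate 1 alone was low, and without WT replicate 2 the log2 fold change was 2.65 with an edgeR adjusted p of 0.00102, while without WT replicate 1 it was -0.02. The receptor gene Prlr was at 2964 and 1487 CPM in WT and 1642 and 2447 CPM in Dhx37-/- nuclei and Akr1cl at 6999 and 5221 CPM in WT and 5071 and 6804 CPM in Dhx37-/- nuclei. Bhmt, betaine-homocysteine methyltransferase, was at 652 and 425 CPM in WT and 422 and 1409 CPM in Dhx37-/- nuclei (log2 fold change 0.61, SE 0.53, adjusted p 0.76), and Dhx37-/- replicate 2 alone was high.

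Dhx37 itself was rare, at 7.62 and 4.47 CPM in WT and 6.01 and 4.67 CPM in Dhx37-/- nuclei, from 9, 2, 14 and 13 UMIs. A 3' kit was used, the positions of the counted tags are not given, and the Cre is designed to act in Sertoli cells. These counts therefore check nothing about the labels. From here levels are CPM scaled by trimmed mean of M values (TMM).

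Across 15018 genes tested in the sums of gated barcodes, 0 were called by edgeR at an adjusted p under 0.05, 0% of the genes. At an unadjusted p under 0.05 there were 1362, of which 866 were higher in Dhx37-/- nuclei (5.77%) and 496 lower (3.3%). DESeq2 called 12 of the 15018 genes given to it, 0.0799%. It gave no adjusted p for some of them, which it could therefore not call. Col4a3, Gm44151, Mrpl41, Olfr889, Osbpl6, Acot12 and Cyfip2, named below, were among these. On simulated sums of the same depth, edgeR called 10.3% of 2-fold and 73.5% of 4-fold changes among 15081 genes. It also called 6 that were given no change. In the data, Kcnd2, Slc8a1 and Col4a3 had log2 fold changes of -2.21, 2.65 and 2.57, each with an edgeR adjusted p of 0.41. Whether the simulated spread matched that of the data was not tested, so these percentages may not hold for the data.

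The smallest p among lower genes with a known product belonged to Kcnd2, a voltage-gated potassium channel subunit. It was at 682 and 869 CPM in WT and 157 and 178 CPM in Dhx37-/- nuclei (log2 fold change -2.21, SE 0.33, adjusted p 0.41 by edgeR, and 1.1e-07 by DESeq2). The 4 values do not overlap, and with at least 6 gate genes they were 688 and 853 CPM in WT and 187 and 242 CPM in Dhx37-/- nuclei. In the other barcodes Kcnd2 was at 25.6 CPM and 59.5 CPM in WT and 26.3 CPM and 27.4 CPM in Dhx37-/-. Stk32a was at 171 and 181 CPM in WT and 60.7 and 64.0 CPM in Dhx37-/- nuclei (log2 fold change -1.49, SE 0.27, adjusted p 0.53 by edgeR, and 0.03 by DESeq2). The other 8 with the smallest p in this direction were Gm42826, Olfr889, Gm19689, Osbpl6, Acot12, Lars2, Cyfip2 and Opcml. Their log2 fold changes were from -2.39 to -1.51. With at least 6 gate genes the log2 fold change was -1.84 for Kcnd2, -1.17 for Stk32a and from -2.16 to -1.21 for these 8. It was smaller in size than at 4 or more gate genes for all of them but Opcml, at -1.97. Each then had an edgeR adjusted p of 0.74. Lars2, the mitochondrial leucyl-tRNA synthetase, was also lower in the other barcodes, at 209 CPM and 71.9 CPM in WT and 31.9 CPM and 39.6 CPM in Dhx37-/-, as was Gm42826, at 150.3 CPM and 167 CPM in WT and 40.2 CPM and 44.8 CPM in Dhx37-/-. Opcml was lower there too, at 152 CPM and 103 CPM in WT and 61.6 CPM and 60.3 CPM in Dhx37-/-. The interaction described last was not called for Opcml (difference -0.33, edgeR adjusted p 0.78). Rn18s-rs5, a ribosomal RNA gene among the 12 called by DESeq2, had the same order of libraries as Lars2, at 22805 and 7222 CPM in WT and 3760.2 and 4628 CPM in Dhx37-/- nuclei and, in the other barcodes, at 17821 CPM and 3851 CPM in WT and 2459 CPM and 2925 CPM in Dhx37-/-. Its part in the lower genes was not tested.

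The smallest p among higher genes belonged to Slc8a1, a sodium-calcium exchanger. It was at 24.3 and 9.93 CPM in WT and 146 and 98.0 CPM in Dhx37-/- nuclei (log2 fold change 2.65, SE 0.41, adjusted p 0.41 by edgeR, and 0.00068 by DESeq2). With at least 6 gate genes it was at 3.86 and 5.09 CPM in WT and 86.2 and 32.1 CPM in Dhx37-/- nuclei. WT and Dhx37-/- libraries did not overlap at either gate. Col4a3, a basement membrane collagen chain, was at 14.4 and 4.97 CPM in WT and 70.6 and 65.1 CPM in Dhx37-/- nuclei, and with at least 6 gate genes at 5.79 and 2.55 CPM in WT and 21.6 and 23.0 CPM in Dhx37-/- nuclei. Fhl2, a LIM domain protein, was at 42.2 and 19.9 CPM in WT and 142 and 128 CPM in Dhx37-/- nuclei, and with at least 6 gate genes at 2.90 and 0 CPM in WT and 34.7 and 19.7 CPM in Dhx37-/- nuclei. Adamts5, a metalloproteinase and 1 of the 10 fibroblast markers, was at 41.3 and 42.2 CPM in WT and 146 and 117 CPM in Dhx37-/- nuclei, and with at least 6 gate genes at 12.6 and 0 CPM in WT and 37.3 and 30.7 CPM in Dhx37-/- nuclei. These 4 genes were lower in every library, or at 0, once barcodes with 4 or 5 gate genes were left out, and the marker sums of 8 other classes given above, fibroblasts and macrophages among them, were higher in both Dhx37-/- libraries. At 6 or more gate genes the log2 fold changes were 3.77 for Slc8a1, 2.19 for Col4a3, 3.66 for Fhl2 and 1.97 for Adamts5, each with an edgeR adjusted p of 0.74. The part of these marker sums in the result was not tested. Ctsl, the lysosomal protease cathepsin L, was at 42.2 and 62.1 CPM in WT and 146 and 123 CPM in Dhx37-/- nuclei, and at 34.8 and 63.7 CPM in WT and 136 and 127 CPM in Dhx37-/- nuclei with at least 6 gate genes (log2 fold change 1.42, SE 0.31, adjusted p 0.53 by edgeR). It was likewise higher in the other barcodes, at 32.0 CPM and 29.2 CPM in WT and 85.3 CPM and 72.7 CPM in Dhx37-/-, and the interaction described last was not called for it (difference 0.26, edgeR adjusted p 0.85). Mrpl41, a protein of the mitochondrial ribosome, was at 6.29 and 2.48 CPM in WT and 25.2 and 24.2 CPM in Dhx37-/- nuclei. The other 4 were Gm44151, Gm50252, Gm10638 and Gm14146.

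**Figure D5:**
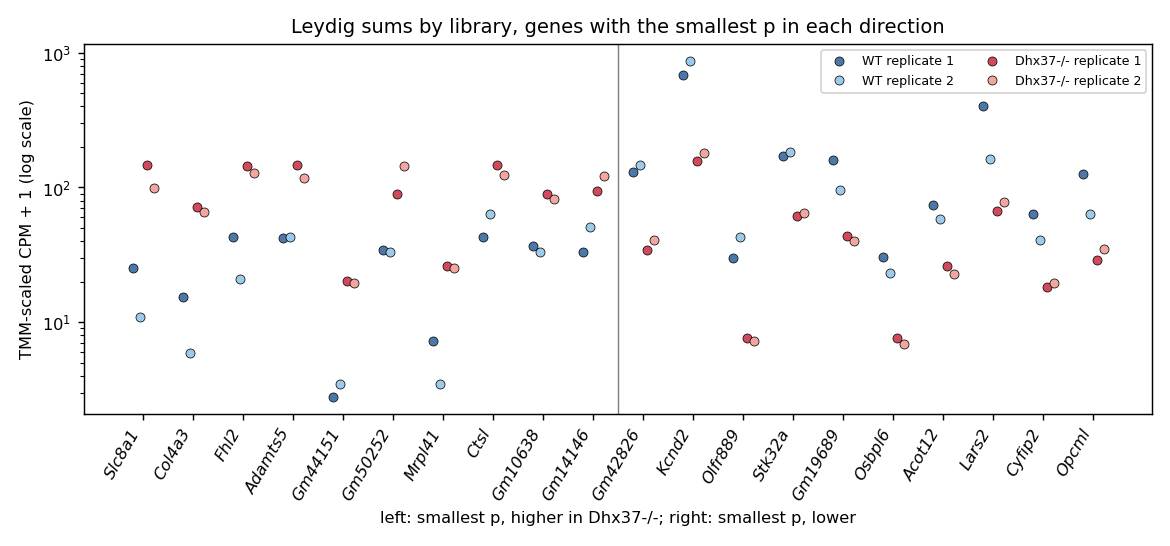
TMM-scaled CPM plus 1 (y axis, log scale) in the 4 libraries for the 10 genes of lowest p among the higher and among the lower (x axis). WT and Dhx37-/- points separate for all 20 genes, which were picked for their small p, and none passed the adjusted threshold in edgeR.

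None of the members of 10 gene lists was called by edgeR, beside 0 of 15018 genes. Over all genes tested, 7399 lay above 0 and 7619 below, with a median log2 fold change of -0.01. For steroidogenesis, 20 of 23 members were tested, 8 lay above 0 and 12 below, 1 had an unadjusted p under 0.05 in the higher and 1 in the lower direction, and the median log2 fold change was -0.27. Gate genes, whose values the gate selected on, are members of this and 3 more lists. Without them 14 members of steroidogenesis were tested with a median of -0.36, and the medians were -0.22 for LH receptor and cAMP signalling, -0.16 for receptors of outside signals and -0.13 for secreted factors. The members with an unadjusted p under 0.05 were Tspo, an outer mitochondrial membrane protein, at 9.88 and 19.9 CPM in WT and 35.5 and 31.2 CPM in Dhx37-/- nuclei, and Srd5a1, a 5-alpha-reductase, at 36.8 and 9.93 CPM in WT and 5.37 and 11.1 CPM in Dhx37-/- nuclei. For cholesterol synthesis and supply, 36 of 37 members were tested, 16 lay above 0 and 20 below, 2 had an unadjusted p under 0.05 in the higher and 0 in the lower direction, and the median log2 fold change was -0.05. Scarb1, which takes up cholesterol from lipoproteins, was at 244 and 449 CPM in WT and 313 and 176 CPM in Dhx37-/- nuclei, and Soat1, which esterifies it, at 261 and 556 CPM in WT and 417 and 148 CPM in Dhx37-/- nuclei. Abca1 was at 3395 and 1112 CPM in WT and 1096 and 1587 CPM in Dhx37-/- nuclei, and Hmgcs1, of cholesterol synthesis, at 298 and 161 CPM in WT and 190.4 and 261 CPM in Dhx37-/- nuclei. The genotypes overlapped for these 4 genes. The 2 members with an unadjusted p under 0.05 were Fdps, farnesyl diphosphate synthase, at 59.3 and 47.2 CPM in WT and 82.2 and 98.7 CPM in Dhx37-/- nuclei, and Ebp, a sterol isomerase, at 12.6 and 14.9 CPM in WT and 28.1 and 31.5 CPM in Dhx37-/- nuclei.

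For LH receptor and cAMP signalling, 34 of 38 members were tested, 11 lay above 0 and 23 below, 1 had an unadjusted p under 0.05 in the higher and 3 in the lower direction, and the median log2 fold change was -0.23. Pde10a, a phosphodiesterase that breaks down cyclic nucleotides, was at 1125 and 251 CPM in WT and 89.6 and 216 CPM in Dhx37-/- nuclei (log2 fold change -2.19, SE 0.65, adjusted p 0.53 by edgeR), and WT replicate 1 stood far above the other 3. Prkacb, a catalytic subunit of the cAMP-dependent kinase, was at 84.4 and 102 CPM in WT and 49.6 and 51.2 CPM in Dhx37-/- nuclei, and its regulatory subunit Prkar2b at 81.7 and 174 CPM in WT and 79.3 and 35.3 CPM in Dhx37-/- nuclei. Adcy7, an adenylyl cyclase and the member with an unadjusted p under 0.05 in the higher direction, was at 16.2 and 4.97 CPM in WT and 49.6 and 31.5 CPM in Dhx37-/- nuclei (log2 fold change 1.68). With at least 6 gate genes it was at 2.90 and 2.55 CPM in WT and 12.1 and 10.1 CPM in Dhx37-/- nuclei, lower in every library. Rapgef4, a cAMP-bound exchange factor, was at 909 and 693 CPM in WT and 519 and 622 CPM in Dhx37-/- nuclei, and Pde8b, a phosphodiesterase, at 508 and 454 CPM in WT and 311 and 401 CPM in Dhx37-/- nuclei. For Leydig transcription factors, 23 of 26 members were tested, 10 lay above 0 and 13 below, 1 had an unadjusted p under 0.05 in the higher and 0 in the lower direction, and the median log2 fold change was -0.10. The most abundant of them, Rora, was at 2172 and 1584 CPM in WT and 1291 and 1218 CPM in Dhx37-/- nuclei, and the estrogen receptor Esr1 at 1311 and 953 CPM in WT and 731 and 659 CPM in Dhx37-/- nuclei. Rora and Esr1 were lower in both Dhx37-/- libraries and did not pass the test. Nr4a2, an orphan nuclear receptor and the member with an unadjusted p under 0.05, was at 0.898 and 4.97 CPM in WT and 12.8 and 6.92 CPM in Dhx37-/- nuclei.

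For receptors of outside signals, 31 of 39 members were tested, 12 lay above 0 and 19 below, 3 had an unadjusted p under 0.05 in the higher and 2 in the lower direction, and the median log2 fold change was -0.19. Igf1r, the receptor of insulin-like growth factor 1, was at 1155 and 1102 CPM in WT and 769 and 599 CPM in Dhx37-/- nuclei, Tgfbr3 at 1477 and 769.6 CPM in WT and 734 and 1149.7 CPM in Dhx37-/- nuclei and Lifr at 1942 and 469 CPM in WT and 459 and 969 CPM in Dhx37-/- nuclei. The members with an unadjusted p under 0.05 in the lower direction were Il1r1, the interleukin 1 receptor, at 317 and 228 CPM in WT and 162 and 155 CPM in Dhx37-/- nuclei, and the Notch receptor Notch3. Notch3 was at 38.6 and 137 CPM in WT and 30.6 and 11.8 CPM in Dhx37-/- nuclei, where Dhx37-/- replicate 1 lay close to WT replicate 1. In the higher direction, Tgfbr2, a receptor of transforming growth factor beta, was at 2.69 and 2.48 CPM in WT and 28.5 and 10.7 CPM in Dhx37-/- nuclei and the transcription factor Gli2 at 10.8 and 0 CPM in WT and 20.6 and 23.9 CPM in Dhx37-/- nuclei. Both were low in every library, and neither passed the filter on low counts at 6 or more gate genes. For secreted factors, 12 of 18 members were tested, 6 lay above 0 and 6 below, 3 had an unadjusted p under 0.05 in the higher and 0 in the lower direction, and the median log2 fold change was -0.05. Ptgds, a prostaglandin D2 synthase, was the most abundant, at 782 and 1231 CPM in WT and 2648 and 1733 CPM in Dhx37-/- nuclei (log2 fold change 1.13, SE 0.43, adjusted p 0.54 by edgeR), and in the other barcodes at 20.8 CPM and 12.8 CPM in WT and 90.5 CPM and 57.4 CPM in Dhx37-/-. Kitl, the ligand of Kit, was at 399.7 and 358 CPM in WT and 263 and 267 CPM in Dhx37-/- nuclei, Timp2, a protease inhibitor, at 185 and 184 CPM in WT and 266 and 285 CPM in Dhx37-/- nuclei, and Igf1 at 39.5 and 29.8 CPM in WT and 116 and 58.2 CPM in Dhx37-/- nuclei. Angpt1, angiopoietin 1, was at 4.49 and 0 CPM in WT and 12.4 and 12.5 CPM in Dhx37-/- nuclei. Ptgds, Timp2, Igf1 and Angpt1 were higher and Kitl lower in both Dhx37-/- libraries, and none passed the test. With at least 6 gate genes Igf1 was at 13.5 and 2.55 CPM in WT and 41.5 and 25.4 CPM in Dhx37-/- nuclei, less in every library than at 4 or more, while Ptgds was then at 771 and 1238 CPM in WT and 3204 and 2271 CPM in Dhx37-/- nuclei and Timp2 at 176 and 183 CPM in WT and 264 and 349.9 CPM in Dhx37-/- nuclei. Angpt1 was at 4.83 and 0 CPM in WT and 6.83 and 10.1 CPM in Dhx37-/- nuclei and Kitl at 383 and 344 CPM in WT and 295 and 317 CPM in Dhx37-/- nuclei. The order of the genotypes was the same for these 5 genes.

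For detoxification and redox, 32 of 33 members were tested, 22 lay above 0 and 10 below, 5 had an unadjusted p under 0.05 in the higher and 0 in the lower direction, and the median log2 fold change was 0.35. The 5 were Gpx1, Gpx4, Gsta4, Prdx5 and Prdx6, which reduce peroxides or conjugate glutathione. Gpx4 was at 47.6 and 81.9 CPM in WT and 156 and 134 CPM in Dhx37-/- nuclei (log2 fold change 1.23, SE 0.33, adjusted p 0.53 by edgeR). In the other barcodes the log2 fold changes of these 5 genes were alike in direction, from 0.98 for Gpx4 to 1.74 for Gsta4, and none of the 5 was called in the interaction. Gstm1, a glutathione transferase, was at 792 and 986 CPM in WT and 1470.5 and 1451 CPM in Dhx37-/- nuclei, Gstm2 at 402 and 621 CPM in WT and 666 and 548 CPM in Dhx37-/- nuclei and Ephx1, an epoxide hydrolase, at 591 and 539 CPM in WT and 386 and 346 CPM in Dhx37-/- nuclei. Aldh1a1, a retinal dehydrogenase and the most abundant of the list, was at 6589 and 4652 CPM in WT and 3567 and 4562 CPM in Dhx37-/- nuclei.

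For fetal or progenitor Leydig genes, 7 of 14 members were tested, 6 lay above 0 and 1 below, 1 had an unadjusted p under 0.05 in the higher and 0 in the lower direction, and the median log2 fold change was 0.41. Without barcodes with markers of another class the median was -0.06, over 6 members. Nr2f2, a nuclear receptor of progenitors, was at 105 and 94.3 CPM in WT and 101 and 105 CPM in Dhx37-/- nuclei, Pdgfra at 107 and 44.7 CPM in WT and 83.4 and 116 CPM in Dhx37-/- nuclei and Hes1, a target of Notch, at 7.19 and 12.4 CPM in WT and 19.4 and 22.5 CPM in Dhx37-/- nuclei. For p53 targets and apoptosis, 30 of 35 members were tested, 16 lay above 0 and 14 below, 2 had an unadjusted p under 0.05 in the higher and 0 in the lower direction, and the median log2 fold change was 0.08. Mdm4, a p53 inhibitor, was at 318 and 315 CPM in WT and 209 and 206 CPM in Dhx37-/- nuclei, Sesn1 at 264 and 186 CPM in WT and 157 and 213 CPM in Dhx37-/- nuclei, Xiap at 212 and 127 CPM in WT and 148 and 149 CPM in Dhx37-/- nuclei and Trp53inp1 at 191 and 57.1 CPM in WT and 42.9 and 134 CPM in Dhx37-/- nuclei. The 2 members with an unadjusted p under 0.05 were Cycs, cytochrome c, at 17.1 and 14.9 CPM in WT and 45.8 and 32.9 CPM in Dhx37-/- nuclei (log2 fold change 1.26), and Tnfrsf10b, a death receptor, at 2.69 and 0 CPM in WT and 8.26 and 7.62 CPM in Dhx37-/- nuclei. For the immediate early and stress response, 14 of 20 members were tested, 11 lay above 0 and 3 below, 2 had an unadjusted p under 0.05 in the higher and 0 in the lower direction, and the median log2 fold change was 0.39. Hsp90aa1, a chaperone, was at 137 and 146 CPM in WT and 224 and 203 CPM in Dhx37-/- nuclei, Hspa5 at 91.6 and 142 CPM in WT and 161 and 116 CPM in Dhx37-/- nuclei, Jund at 43.1 and 32.3 CPM in WT and 75.2 and 58.9 CPM in Dhx37-/- nuclei and Atf4 at 53.9 and 62.1 CPM in WT and 48.7 and 39.1 CPM in Dhx37-/- nuclei. Jund and Ier3, an immediate early gene at 3.59 and 4.97 CPM in WT and 20.2 and 12.1 CPM in Dhx37-/- nuclei, were the 2 with an unadjusted p under 0.05.

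The list medians depended on the gate and on single libraries. With at least 6 gate genes, 3 of them changed sign, to 0.24 for cholesterol synthesis and supply, 0.05 for Leydig transcription factors and 0.48 for secreted factors, or 0.19 without its gate gene Insl3. For steroidogenesis the median was 0.08 with its 6 gate genes, which that gate selects on more strictly, and -0.0079 over the 14 members without them, so that no change of sign is read there. The others were -0.16 for LH receptor and cAMP signalling (-0.14 without Lhcgr), -0.13 for receptors of outside signals (-0.19 without Prlr), 0.53 for detoxification and redox, 0.53 for fetal or progenitor Leydig genes, 0.11 for p53 targets and apoptosis and 0.37 for the immediate early and stress response, beside -0.01 over all genes.

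When each library was left out in turn, the median ran from -0.29 to -0.15 for LH receptor and cAMP signalling, 0.06 to 0.55 for detoxification and redox, 0.15 to 0.76 for fetal or progenitor Leydig genes and 0.18 to 0.59 for the immediate early and stress response, which kept their signs. The other 6 did not. Without WT replicate 1 the median turned to 0.30 for receptors of outside signals, 0.23 for cholesterol synthesis and supply, 0.12 for Leydig transcription factors and 0.10 for secreted factors. Without WT replicate 2 it turned to 0.07 for steroidogenesis, 0.24 for secreted factors and -0.00068 for p53 targets and apoptosis, and without Dhx37-/- replicate 1 to 0.06 for cholesterol synthesis and supply. With gate genes left out of the lists the same medians turned. Without WT replicate 1 they were 0.31 for receptors of outside signals and 0.25 for secreted factors, and without WT replicate 2 they were 0.02 for steroidogenesis and 0.02 for secreted factors. Over every alternative tried, LH receptor and cAMP signalling stayed below 0, with and without Lhcgr. Detoxification and redox and the immediate early and stress response stayed above 0. The other lists changed sign under some alternative. Without barcodes with markers of another class the median was -0.06 for fetal or progenitor Leydig genes and -0.07 for p53 targets and apoptosis. For p53 targets and apoptosis it was also -0.15 at 3 or more gate genes and -0.0065 with no upper limit on genes.

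The genotype effect in Leydig nuclei was also set against that in the other barcodes, which are mostly germ cells, by an interaction term in edgeR with library as a block. Of 28426 genes tested, 346 were called, 1.22%, of which 163 had a higher (0.573%) and 183 a lower effect (0.644%) in Leydig nuclei. The called genes included 7 of the 10 macrophage markers, all with a higher effect, 2 of the 10 fibroblast and 2 of the 10 peritubular myoid markers, also higher. They also included 2 of the 10 Leydig markers, both with a lower effect, which is a description because these are gate genes. The difference in log2 fold change was -1.34 for Insl3 and -1.29 for Cyp11a1. With at least 6 gate genes 26 were called. Without Dhx37-/- replicate 1 it was 7, without Dhx37-/- replicate 2 it was 9, without WT replicate 1 it was 685 and without WT replicate 2 it was 122. Kcnd2 was among the 346, with a difference in log2 fold change of -1.48 (edgeR adjusted p 0.000662).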

How the data were processed

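Single nuclei of mouse testis were sequenced with a droplet 3' kit (10x Genomics), with 2 WT and 2 Dhx37-/- libraries. The deposited values are raw UMI counts per gene and barcode, made by the authors with Cell Ranger over all observed barcodes. The build is given as mm39 in the study's methods and as GRCm38/mm10 in the submitters' processing notes, so that no coordinate of the files was used. Whether intronic reads were counted is not given in the sources used here. Deposited barcode and gene tables hold names only.

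The depth filter and gate are those given at the start of the results, and the members and gene lists were chosen with earlier results of these data known. Raw counts were summed per library over gated barcodes and over the others. Genes were tested with edgeR 4.0.16 (filterByExpr, TMM, glmQLFit and glmQLFTest, two-sided, Benjamini-Hochberg, called at an adjusted p under 0.05) in R 4.3.3, with genotype as the only term. The difference of the genotype effect between gated and other barcodes was an interaction term over 8 sums, with library as a block. DESeq2 1.42.0 was an alternative. Shares were compared with an exact permutation test (SciPy 1.17.1) and have Wilson 95% intervals. Free RNA was estimated per library from barcodes ranked 45000 to 90000 by UMIs and scaled on Prm1, Prm2, Tnp1 and Tnp2. SE of a fold change comes from the F statistic. Of 55357 genes, 980 with a symbol that occurs more than once were not matched by symbol, among them the list member Ddit3. The tests were checked on simulated counts with known changes.

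Named genes were Dhx37, the 10 gate genes, the 15 highest and 5 lowest other genes by ratio of gated over other barcodes (at least 20 CPM in the gated barcodes of every library, and for the lowest at least 200 CPM in the others), between genotypes, since 0 were called, the 10 of lowest p among the higher and among the lower genes, and of each list the 4 most abundant tested members, some of which are not reported here. Members of a list with an unadjusted p under 0.05, and the genes of the Hsd3b6 and Hsd3b1 split, were named after their values were seen. The alternatives were DESeq2, other scalings, no filter on low counts, the replicate number as a block, each library left out, gates of 3 or 6 genes, a gate on barcodes thinned to 1000 UMIs, at least 500 UMIs, no upper limit on genes, no barcodes with 4 markers of another class, and subtraction of free RNA.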

Additional observations from a re-analysis of the deposited data

Results flagged for a closer look

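In the interaction test of edgeR, 346 of 28426 genes tested (1.22%) had a genotype effect in Leydig nuclei that differed from that in the other barcodes. Among the genes with the smallest p between genotypes, those past the threshold, with the difference in log2 fold change, Leydig minus other barcodes, were Slc8a1 at 2.65 (edgeR adjusted p 1e-07), Col4a3 at 2.67 (edgeR adjusted p 4e-06), Fhl2 at 2.22 (edgeR adjusted p 4e-06), Adamts5 at 1.55 (edgeR adjusted p 0.0052), Gm44151 at 3.24 (edgeR adjusted p 0.00088), Gm50252 at 1.27 (edgeR adjusted p 0.027), Kcnd2 at -1.48 (edgeR adjusted p 0.00066) and Acot12 at -1.37 (edgeR adjusted p 0.046). The level of Acot12, an acetyl-CoA hydrolase, was 73.7 and 57.1 CPM in WT and 25.2 and 21.8 CPM in Dhx37-/- nuclei, and that of Gm50252 was 33.2 and 32.3 CPM in WT and 88.4 and 144 CPM in Dhx37-/- nuclei. In the other barcodes Slc8a1 was at 91.4 and 48.3 CPM in WT and 95.8 and 78.2 CPM in Dhx37-/-. Col4a3 was there at 51.6 and 31.8 CPM in WT and 59.3 and 40.0 CPM in Dhx37-/-. Gm44151 was there at 54.2 and 161 CPM in WT and 116 and 78.9 CPM in Dhx37-/-. In gated barcodes it was at 1.80 and 2.48 CPM in WT, from 2 and 1 UMIs, and 19.4 and 18.7 CPM in Dhx37-/-. Gm50252 was in the other barcodes at 207 and 489 CPM in WT and 450 and 505 CPM in Dhx37-/-. In WT these genes and Fhl2 were higher in the other barcodes than in gated ones, and Adamts5 was lower. The part of this in the interaction was not tested.

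Barcodes with over 5000 detected genes, which the depth filter left out, also passed the gate, 4 and 0 in WT and 28 and 28 in Dhx37-/- libraries, of 13 and 15 and of 204 and 302 such barcodes. Their median gate UMIs were 17 and 39 in Dhx37-/- and their median Malat1 share was 2.59% and 2.31%. With them the share of Leydig nuclei was 3.10 points higher in Dhx37-/- than in WT.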

How the results depend on the processing

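The higher share of Leydig nuclei in Dhx37-/- kept its direction under every gate, depth and left-out library tried. The differences were between 1.87 and 4.99 points. The share of Hsd3b6-dominant nuclei among dominant ones also kept its direction under 3 other limits, with 15.5 to 19.4 points. Mixed nuclei were left out of that share under each limit, and the genotypes overlapped when they were counted at the main limit. The number of genes called between genotypes, 0 by edgeR, was 12 with DESeq2, 76 with no filter on low counts and 5 with at least 3 gate genes. Leaving out 1 library gave 3 to 21. Combinations added after seeing the data gave 3 with DESeq2 at 6 or more gate genes, and 2 to 688 when a library was left out at 6 or more, where 120 followed without WT replicate 1, 688 without WT replicate 2, 2 without Dhx37-/- replicate 1 and 14 without Dhx37-/- replicate 2. In such fits the lone library is assumed to vary like the pair of the other genotype. Members of the gene lists, of which 0 were called, gave 4 with no filter, 0 to 2 when a library was left out, and 0 to 24 when one was left out at 6 or more gate genes. The number of gate genes called, 0, was 0 to 1 when a library was left out (Insl3, without WT replicate 2). The count of 346 genes in the interaction was 29 with DESeq2, 1930 with at least 3 gate genes, 26 with at least 6, 8 with the thinned gate, 894 with no upper limit on genes, and 7 to 685 when a library was left out. Library totals in place of TMM moved the median log2 fold change of all genes from -0.01 to 0.16 and the interaction's split from 163 higher and 183 lower to 108 and 281.

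Gate genes changed sign in 21 of these fits, none of them with a call. Cyp17a1 was 0.023 with library totals, 0.13 at 6 or more gate genes, 0.14 with the thinned gate, and 0.00205 without barcodes of another class. At 6 or more gate genes and with the thinned gate, Prlr was 0.074 and 0.00733, and Akr1cl 0.074 and 0.035. Star was -0.24 at 3 or more gate genes and -0.059 with no upper limit. When each library was left out in turn, log2 fold changes ran from -1.61 to 0.39 for Cyp11a1, -0.61 to 0.50 for Cyp17a1, -0.025 to 2.65 for Insl3, -0.69 to 0.27 for Prlr, -0.39 to 0.054 for Akr1cl, -0.37 to 0.64 for Star and -0.50 to 1.25 for Bhmt. The cause was not tested in any of these.

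The replicate block called 13 genes between genotypes, 10 of them higher, and 0 gate genes. Same-numbered libraries deviated in opposite directions. The correlation was -0.17 across 15018 genes and -0.38 across the 6290 with a mean log2 CPM of at least 5. With 2 pairs and no shared origin in the labels the numbers do not pair them. The crossed replicate block, added after seeing the data, called 0 genes and 1 gate gene (Insl3). With 86 gated nuclei in WT replicate 2, fold changes of low genes rest on few UMIs there.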

Other observations

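Several abundant genes differed more between libraries of 1 genotype than between genotypes, here in CPM without TMM scaling. Cyp11a1 was at 965 and 3688 CPM in WT and 1928 and 832 CPM in Dhx37-/- nuclei, and Heg1 at 1066 and 2644 CPM in WT and 2062 and 858 CPM in Dhx37-/- nuclei, highest in WT replicate 2 and next in Dhx37-/- replicate 1. Lifr was at 1831 and 423 CPM in WT and 478 and 1006 CPM in Dhx37-/- nuclei, and Prlr at 2852 and 1483 CPM in WT and 1591 and 2295 CPM in Dhx37-/- nuclei, highest in WT replicate 1 and next in Dhx37-/- replicate 2. These genes were chosen after their values were seen, and no cause was tested.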
